A study of Mus musculus with 16 samples.

Results

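The genes described here encode the D-type cyclins (Ccnd1, Ccnd2, Ccnd3), their catalytic partner Cdk6, and 6 inhibitors of cyclin-dependent kinases (Cdkn1a, Cdkn1b, Cdkn2a, Cdkn2b, Cdkn2c, Cdkn2d). Chromatin was read as peaks of ATAC-seq, in which a transposase cuts DNA that is not packed by nucleosomes. Overlapping peaks of the 16 deposited peak lists on chromosomes 1 to 19 and X were merged, and a merged region was kept where at least 2 libraries held a peak in it. A region belonged to a gene where that gene was the nearest protein-coding gene within 100 kb of the region's median summit on build GRCm38 (mm10). This gave 42 regions of 33773. Regions are numbered along the chromosome within each gene. Ccnd1 had 6, Ccnd2 6, Ccnd3 9, Cdk6 5, Cdkn1a 3, Cdkn1b 5, Cdkn2a 1, Cdkn2b 3, Cdkn2c 3 and Cdkn2d 1. Of the 42, 8 lay at a gene end (within 1 kb of either end of the gene), 19 lay further inside a gene and 15 outside it. Their median width was 1053 bp, from 424 to 7090 bp, against 830 bp over all regions.

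The cells were haematopoietic stem cells (HSCs) sorted from bone marrow of male B6 mice, and 4 libraries were made in each of 4 groups. Young pre libraries came from pools of 3 to 4 donors aged 8 to 12 weeks, and old pre libraries from 1 donor each aged 24 months. Young post and old post libraries came from HSCs of 5 pooled recipients per replicate, young BJ mice that had been lethally irradiated and given 1000 HSCs of the same donors with 300000 Sca-1-depleted BJ helper marrow cells 3 months earlier. Each library used 10000 cells. No genotype other than B6 and BJ was named, and all post libraries shared irradiation, helper cells and a young host. No label names a donor marker in the sort after transplantation, and HSCs from recipients or helper marrow cannot be told apart from donor HSCs in these lists. Stage and transposition day cannot be told apart either, because pre libraries were transposed on days 1 to 3 and post libraries on days 4 to 6. Age and day were partly mixed too. Day 1 held only old pre 1 and 2, day 3 only young pre 4, and day 4 only old post 1 and 2. Days 2, 5 and 6 held both ages. The comparisons addressed whether open chromatin at these genes differed with donor age and with transplantation.

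D-type cyclins bind Cdk4 and Cdk6 in response to growth signals, and the kinase complexes phosphorylate the retinoblastoma protein, which frees E2F factors to switch on genes of DNA replication. The INK4 proteins (Cdkn2a as p16Ink4a, Cdkn2b as p15Ink4b, Cdkn2c as p18Ink4c, Cdkn2d as p19Ink4d) bind Cdk4 and Cdk6 and block cyclin D, while the CIP/KIP proteins (Cdkn1a as p21, Cdkn1b as p27) act mainly on cyclin E and cyclin A complexes with Cdk2. HSCs are largely quiescent, enter the cell cycle when they repopulate an irradiated host, and are a standard system for the study of these brakes. Cdkn2a also encodes p19Arf from a separate upstream start with an alternative reading frame, and Arf stabilises p53 by binding Mdm2.

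Windows from 250 bases before to 50 after annotated starts are shown for starts that were never called, called in some libraries or called in all. Sequences are RefSeq's, on GRCm38.p6, read in the direction of transcription. 8 of the 10 genes had an entry, with 12 windows in all; Ccnd1 and Ccnd2 had none. Capitals mark matches, on either strand, to a GC box (GGGCGG), E2F (TTTCCCGC or TTTGGCGC), CRE (TGACGTCA), CCAAT, E-box (CACGTG) or ETS (CCGGAAG) motif. The upstream Cdkn2a start, from which Arf is made, had its window at chr4:89294570-89294869 on the minus strand, and the downstream start, which gives p16Ink4a, at chr4:89282143-89282442 on the minus strand. The Cdkn2b window was chr4:89310983-89311282 on the minus strand. The Cdkn1a windows were chr17:29090729-29091028 and chr17:29093519-29093818, and the Cdkn1b window chr6:134920151-134920450, all on the plus strand.
Cdkn2a start 1 (Arf): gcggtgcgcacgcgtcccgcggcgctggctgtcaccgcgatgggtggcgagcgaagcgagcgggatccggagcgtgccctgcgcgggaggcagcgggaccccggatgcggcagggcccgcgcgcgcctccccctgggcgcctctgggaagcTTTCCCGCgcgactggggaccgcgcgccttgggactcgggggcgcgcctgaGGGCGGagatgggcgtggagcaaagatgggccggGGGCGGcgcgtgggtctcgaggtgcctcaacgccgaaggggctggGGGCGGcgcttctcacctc
Cdkn2a start 2 (p16Ink4a): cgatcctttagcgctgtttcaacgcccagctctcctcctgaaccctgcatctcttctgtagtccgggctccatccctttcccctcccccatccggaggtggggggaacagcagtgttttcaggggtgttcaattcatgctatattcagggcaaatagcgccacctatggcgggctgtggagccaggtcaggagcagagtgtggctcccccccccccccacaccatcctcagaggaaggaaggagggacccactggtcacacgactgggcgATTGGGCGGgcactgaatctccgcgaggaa
Cdkn2b start 1: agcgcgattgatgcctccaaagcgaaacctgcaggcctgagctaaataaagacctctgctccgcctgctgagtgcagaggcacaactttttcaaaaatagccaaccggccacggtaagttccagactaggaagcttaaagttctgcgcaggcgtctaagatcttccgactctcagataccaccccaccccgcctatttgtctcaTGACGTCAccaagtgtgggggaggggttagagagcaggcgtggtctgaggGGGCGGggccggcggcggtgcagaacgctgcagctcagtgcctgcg
Cdkn1a start 1: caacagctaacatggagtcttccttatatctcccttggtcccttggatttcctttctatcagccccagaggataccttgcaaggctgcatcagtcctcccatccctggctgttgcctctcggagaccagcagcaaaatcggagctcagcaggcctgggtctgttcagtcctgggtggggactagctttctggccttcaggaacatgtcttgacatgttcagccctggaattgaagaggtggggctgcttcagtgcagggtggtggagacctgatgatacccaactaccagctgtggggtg
Cdkn1a start 2: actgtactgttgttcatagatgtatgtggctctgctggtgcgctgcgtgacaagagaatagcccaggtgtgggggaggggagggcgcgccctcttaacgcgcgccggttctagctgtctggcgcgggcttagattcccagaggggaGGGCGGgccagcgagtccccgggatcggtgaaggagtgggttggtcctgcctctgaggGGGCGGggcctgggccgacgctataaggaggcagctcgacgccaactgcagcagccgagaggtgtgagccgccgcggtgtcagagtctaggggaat
Cdkn1b start 1: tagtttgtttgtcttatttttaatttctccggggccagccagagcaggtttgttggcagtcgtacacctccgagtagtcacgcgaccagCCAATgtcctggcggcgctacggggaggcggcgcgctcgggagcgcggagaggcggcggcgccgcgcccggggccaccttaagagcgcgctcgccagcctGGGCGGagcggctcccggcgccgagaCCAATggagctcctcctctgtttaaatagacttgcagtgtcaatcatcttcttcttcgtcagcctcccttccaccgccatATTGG

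Peaks at these windows ranged from none to all libraries. No library of 16 had a peak overlapping the p16Ink4a window or the upstream Cdkn1a window, while the Cdkn1b window had one in 16, the downstream Cdkn1a window in 14, the Cdkn2b window in 14 and the Arf window in 7. Among 32619 windows of 26794 genes, 58.5% had no peak in any library and 14.2% had one in all. The Arf window was the richest of the 12 in CpG, with 45 CpG dinucleotides and 77% GC, against 12 and 60.3% in the p16Ink4a window. The upstream Cdkn1a window had 2 CpG and 54.7% GC and held none of the capitalised motifs, and the downstream one had 23 CpG, 64.7% GC and 2 GC boxes. Over all windows the median was 7 CpG and 53% GC. It was 3 and 48% in windows with no peak, and 23 and 62.3% in those with a peak in all libraries.

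A GC box was found in 9 of the 12 windows and in 35.9% of all windows. The E2F letters occurred in 1 of 12, the Arf window, beside 3 GC boxes (1.58% of all windows). The CRE letters occurred in 1 of 12, the Cdkn2b window (1.8% of all). CCAAT was present in 5 of 12 (37.6% of all), with 3 matches in the Cdkn1b window and 1 in the p16Ink4a window, where it shares bases with a GC box on the other strand. The E-box was present in 2 (7.2% of all) and ETS in 1 (8.92% of all). The letters of AP-1 (TGANTCA), RUNX (TGTGGT), STAT (TTCNNNGAA) and the GATA family (AGATAA) were in none of the 12, against 7.85%, 16.6%, 8.34% and 11.2% of all windows. FOXO letters (GTAAACA) were in 1 of 12, the upstream Ccnd3 window (3.67% of all). These are matches of letters in a window and not measured binding sites.

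The lists differed in length, from 5711 to 32557 peaks, and the shortest lists called the fewest of these regions. The number of reads per library is not known from peak lists, and the lack of a peak means only that none was called, not that the chromatin was closed. Each library was therefore compared with the number of calls expected for regions called as often, given the calls of that library over all regions. Old pre 4, young pre 4 and old post 4 had the 3 shortest lists. Gene ends of 7 of 10 HSC and progenitor markers (all but Mecom, Hlf and Slamf1) held a region, with 3 to 7 called per library. Gene ends of 0 of 6 granulocyte and monocyte markers, 1 of 5 B cell, 2 of 5 T and NK cell, 2 of 5 erythroid and 3 of 5 endothelial and stromal markers held one. Pax5, Cd3e, Hbb-bs and Col1a1 were among those with none. The other-lineage markers called per library ran from 0 to 1, 0 to 2, 0 to 2 and 0 to 3 for the last 4 lists, with the lowest counts of the T and NK cell, erythroid and endothelial lists in short peak lists, and their part in the results was not tested. In bulk libraries, fewer cells with an open region and less open chromatin per cell cannot be told apart.

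The regions were called most often in young post libraries. The number called of 42 was 32, 27, 27 and 11 in young pre libraries 1 to 4, and 31, 32, 23 and 9 in old pre libraries. It was 39, 40, 40 and 40 in young post, and 31, 36, 40 and 19 in old post. All young post libraries lay above all pre libraries, young pre and old pre overlapped, and old post overlapped the other 3 groups. As means these were 57.7% ± 21.8 of the regions in young pre, 56.5% ± 25.3 in old pre, 94.6% ± 1.19 in young post and 75% ± 21.7 in old post (SD, n = 4 each). All 33773 regions gave 56.2%, 55.5%, 88.5% and 67.1%. Observed minus expected calls were -2.6, -0.5, 0.2 and -0.4 for young pre 1 to 4. They were -2.1, -4.2, -0.1 and 0 for old pre 1 to 4, -0.4, 2.3, 1.7 and 1.2 for young post 1 to 4, and 2, 0.7, 2.2 and 0.2 for old post 1 to 4. No library departed from its expected number by more than 4.2 regions, and these sums run over regions chosen for their genes, so they carry no test.

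**Figure D1:**
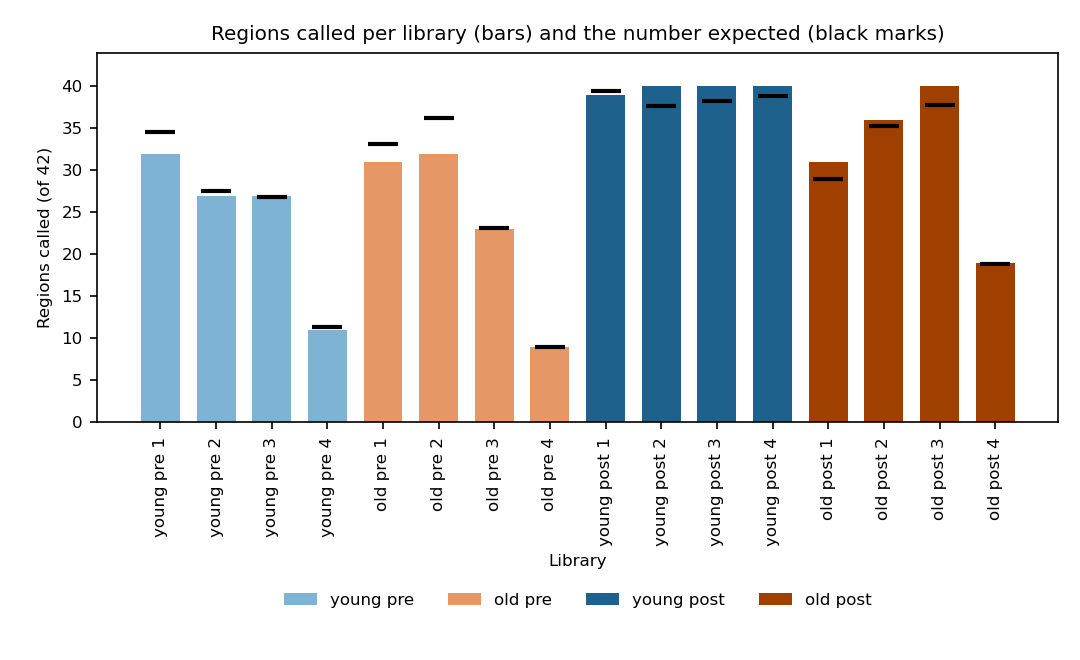
Bars show how many of the 42 regions were called in each library, coloured by group, and black marks show the number expected from that library's calls over all regions. Young post libraries sit between 39 and 40, the pre libraries between 9 and 32, and the largest gap to a mark is the 4.2 regions by which old pre 2 falls below its own.

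**Figure D2:**
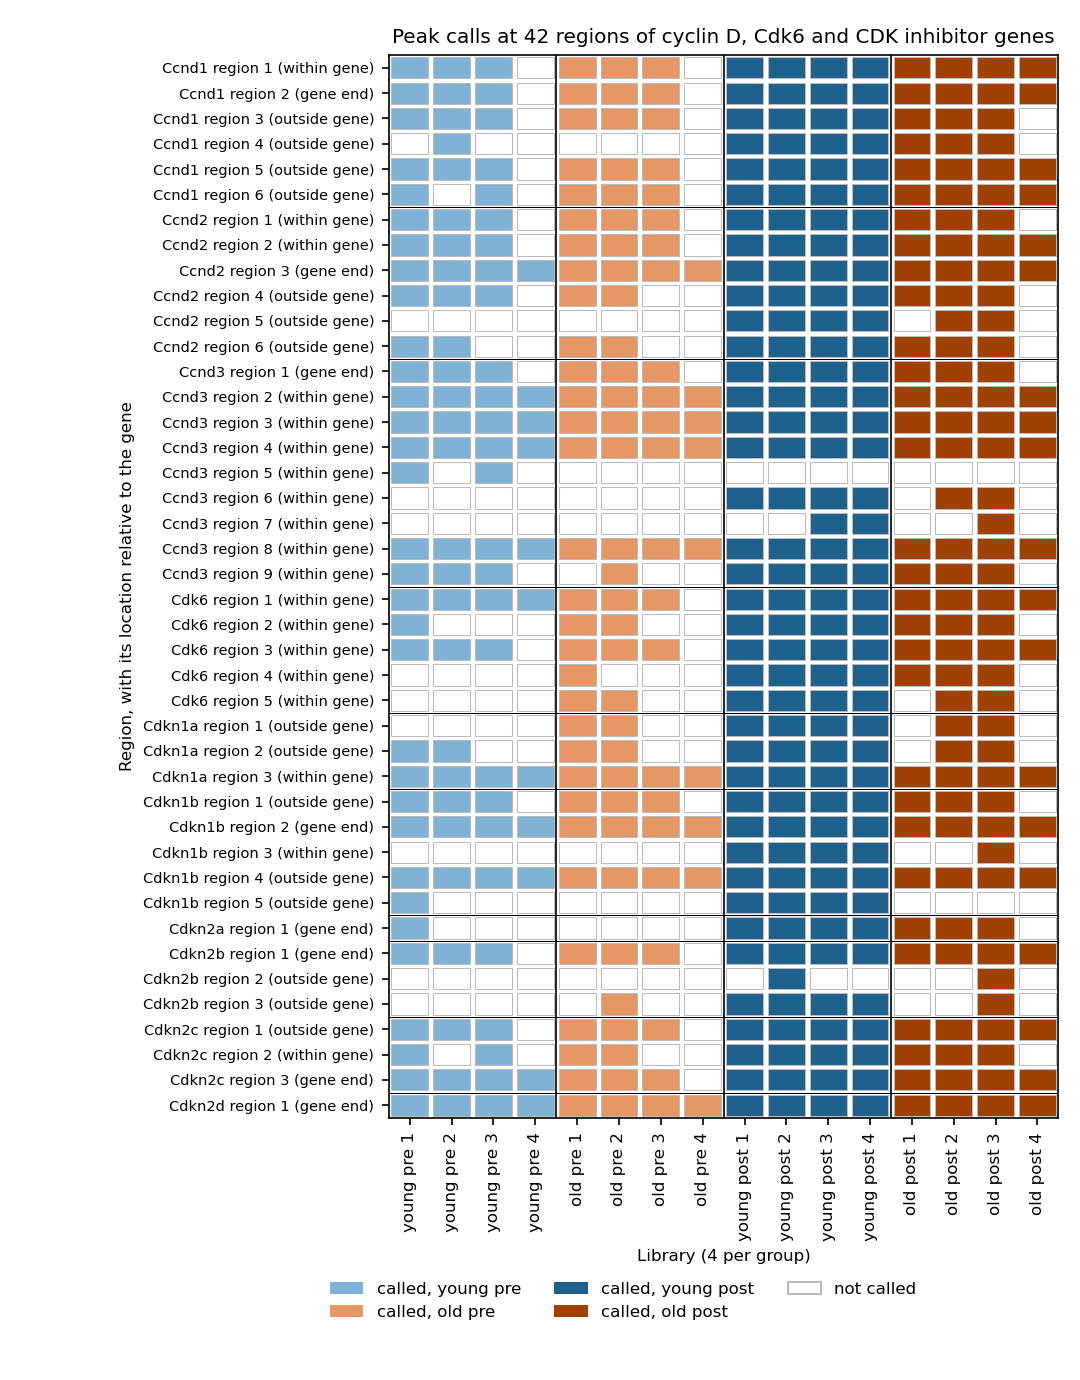
Filled cells mark a called peak for each of the 42 regions (rows, grouped by gene, with location) in each of the 16 libraries (columns, 4 per group). The 9 regions called in all libraries (21.4%, against 15.6% of all 33773 regions) form unbroken rows. The columns of young pre 4, old pre 4 and old post 4 are the emptiest.

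Each region was compared between groups by an exact test, two-sided, that weights every library by its log odds of a call over all regions, so that a long list counts for less. Adjustment followed Benjamini and Hochberg, over all regions called in 3 to 5 of 8, or 4 to 12 of 16, libraries compared, at a threshold of 0.05. After against before, the test kept each donor as a block. Replicates were separate donors or donor pools. The exact p rests on the library log odds and on the calls of a region, and does not measure the spread between donors.

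Among the D-type cyclins, Ccnd2 carried the strongest peak of all these genes and Ccnd3 the most regions called everywhere. Ccnd2 region 3 (chr6:127148972-127156061), whose median summit lay 403 bp beyond the gene end where transcription of this cyclin starts, was called in all 16 libraries. Peaks were ranked within each list by the deposited area score. In 15 lists its best peak ranked 16 to 33, in the top 0.0561% to 0.343%, and in old pre 4 it ranked 158 of 5687 (2.78%). The called peak covered 1697 bp in old pre 4 and up to 7087 bp in old pre 2. Ranks were high in both ages and stages, with the 1 low rank in the shortest list.

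The other 5 Ccnd2 regions varied. Region 1 (chr6:127142148-127143748) and region 2 (chr6:127147687-127148329) inside the gene were called in 3 of 4 young pre, 3 of 4 old pre, 4 of 4 young post and, respectively, 3 and 4 of 4 old post libraries. Region 4, 10.9 kb beyond the gene, had 3, 2, 4 and 3 calls in the same order of groups, and region 6, at 93.9 kb, had 2, 2, 4 and 3. Region 5 (chr6:127165526-127166006), at 13.7 kb, was called in 0 of 8 pre libraries, 4 of 4 young post and 2 of 4 old post libraries (2 and 3). In a setting called lists of 14008 peaks, each longer list was cut to its 14008 peaks of largest area. Young pre 4 (9614 peaks) and old pre 4 (5687 peaks) stayed shorter, so pre and post lists still differed in length. There region 5 was no longer kept. Region 2 had 5 of 8 calls before and 2 of 8 after transplantation (p = 0.026, adjusted p = 0.63, exact test with donor block over 4067 regions). Unshortened, that region had 6 calls before and 8 after.

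Ccnd3, the cyclin D with the largest number of regions here, had 4 of its 9 called in all 16 libraries. Region 8 (chr17:47592573-47597101) spans the downstream start of Ccnd3, with its median summit 2112 bp past that start. Its rank lay between the top 0.319% and 0.846% in 12 lists, while old pre 3 had it at 3.35%, old post 4 at 15.5%, young pre 4 at 16.6% and old pre 4 at 25.7%. Regions 2, 3 and 4, between 3.04 and 16.7 kb inside the gene from the upstream start, were also called in every library. Region 1 (chr17:47504779-47505733), over the upstream start 88.4 kb away from the downstream one, was called in 3 of 4 young pre, 3 of 4 old pre, 4 of 4 young post and 3 of 4 old post libraries. Missing were young pre 4, old pre 4 and old post 4, the 3 shortest lists. In lists shortened to 14008 peaks, region 1 had 3 of 4 calls in young pre and 0 of 4 in old pre, and 1 of 4 in each post group. That pre difference had p = 0.045 and adjusted p = 0.6 by the exact test over 3273 regions, and did not pass.

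4 regions inside Ccnd3 were called unevenly. Region 5 (chr17:47527464-47527887) was called in young pre 1 and young pre 3 and nowhere else, and was the only one of the 42 with fewer calls after than before. Both peaks were weak, at 81.9% and 96.6% of their lists. Region 6 was called in 4 of 4 young post and 2 of 4 old post libraries (2 and 3), and region 7 in young post 3 and 4 and old post 3. Neither was called before transplantation. Region 9 (chr17:47597850-47598677), 4.82 kb inside the downstream start, was called in 3 of 4 young pre, 1 of 4 old pre (2), 4 of 4 young post and 3 of 4 old post libraries. Its 1 call in old pre against 2 expected gave p = 0.067 and adjusted p = 1 by the depth-weighted exact test. Over both stages it gave p = 0.29 for old against young, and after against before p = 0.19 by the same exact test (adjusted p = 1 for both). The shortfall before transplantation, -1.0 calls against expectation, was -0.23 without old pre 1 or on shared transposition days, and that over both stages went from -0.84 to -0.25 without old pre 1 (exact test, p = 1 for each). The excess after transplantation went from 0.82 to 0 without old pre 1 or old post 1 (exact test, p = 1).

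Ccnd1 had no region called in all libraries. Region 2 (chr7:144938615-144941923), at the gene end where transcription starts, was called in 3 of 4 libraries of each pre group and 4 of 4 of each post group. Missing were young pre 4 and old pre 4. Its rank varied from 3.8% in old post 2 and 4.14% in young pre 2 to 50.2% in old pre 3. Regions 1 and 3 beside it, and region 5 at 85.9 kb, had the same calls, except that region 3 was also absent in old post 4. Region 4 (chr7:144970920-144971498), at 31.3 kb, was called in young pre 2 alone before transplantation, and after it in 4 of 4 young and 3 of 4 old libraries. Its 7 of 8 calls after were 1.63 more than expected (exact test, p = 0.058, adjusted p = 1). That excess was 0.81 without old pre 1 or old post 1 (exact test, p = 0.42 and 0.43). It was 1.0 without old pre 2 and 1.01 without old post 2 (exact test, p = 0.3 and 0.16), and 0.19 with an area of at least 400 (exact test, p = 1).

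Ccnd1 region 6 (chr7:145030633-145031434), at 91.2 kb, was called in 2 of 4 young pre, 3 of 4 old pre and all 8 post libraries (old against young before, exact p = 0.23, adjusted p = 1). Its 0.77 calls beyond expectation in old pre were 0.07 without old pre 3 (exact test, p = 1). In lists of 14008 peaks it was called in 0 of 4 young pre, 3 of 4 old pre, 2 of 4 young post and 3 of 4 old post libraries. Over both stages these 6 of 8 old against 2 of 8 young calls had p = 0.04 and adjusted p = 0.45 over 4067 regions by the same exact test. The old and young libraries thus overlapped after transplantation, and the difference did not pass.

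**Figure D3:**
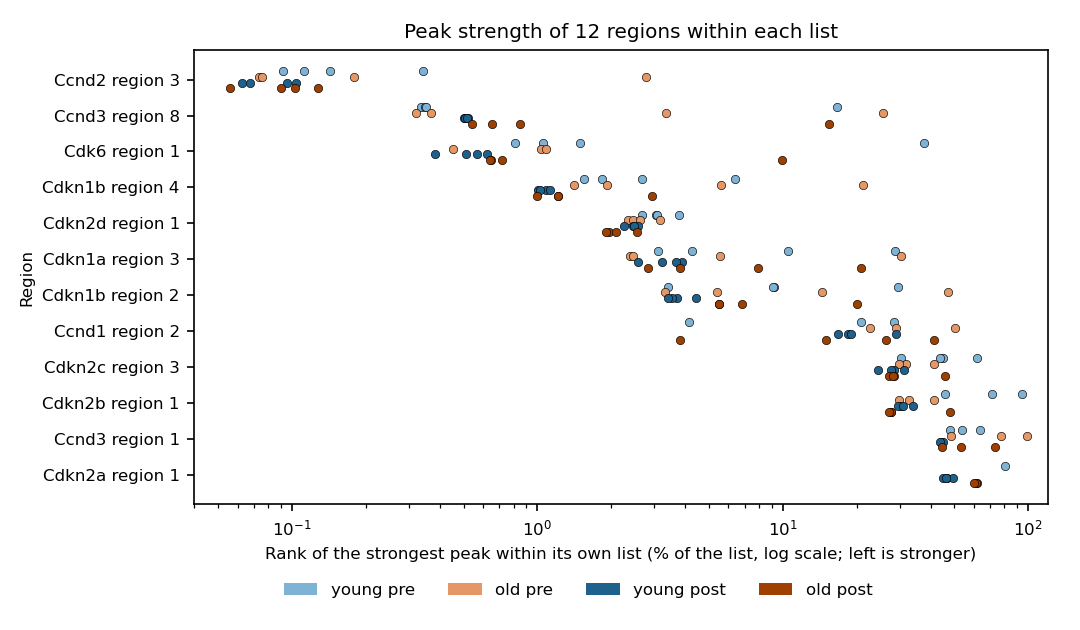
Each point is 1 library's strongest peak in a region, as its rank by area in percent of that library's own list (log scale, left is stronger), coloured by group, for the 8 gene-end regions, Ccnd3 region 8, Cdk6 region 1, Cdkn1a region 3 and Cdkn1b region 4. Ccnd2 region 3 lies furthest left, at 0.0561% to 0.343% in 15 lists, and Cdkn2a region 1 lies furthest right by median, with 8 points.

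Cdk6, the kinase that D-type cyclins activate in blood cells, had all 5 of its regions within the gene. Region 1 (chr5:3341092-3344985), with its median summit 7 bp from the start site, was called in 15 libraries, all except old pre 4. Its rank was between 0.384% and 1.49% in 13 lists, 9.94% in old post 4 and 37.8% in young pre 4. Region 3 (chr5:3432595-3433902), 89.7 kb into the gene, had 3, 3, 4 and 4 calls (young pre, old pre, young post, old post, the order used from here on). Region 2, at 61.5 kb, had 1, 2, 4 and 3. The intronic or exonic place of these regions was not annotated, because only gene spans were used here.

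Cdk6 regions 4 (chr5:3494227-3494862) and 5 (chr5:3497487-3498336), 151 and 154 kb into the gene, were the 2 regions of this kinase called in no young pre library. Region 4 was called in old pre 1, in 4 of 4 young post and in 3 of 4 old post libraries. Region 5 was called in old pre 1 and 2, in 4 of 4 young post and in old post 2 and 3. Peaks of region 5 ranked at 64.9% and 48% in old pre 1 and 2, at 79.8%, 94%, 77.1% and 77.4% in young post 1 to 4, and at 89.3% and 86.2% in old post 2 and 3. The old pre peaks were thus the higher in rank, and with an area of at least 400 region 5 was called in those 2 libraries and in 0 of 8 after transplantation, which turns its direction. Over both stages each had 4 of 8 calls in old and 4 of 8 in young libraries, 0.65 more in old than expected (exact test, p = 0.46, adjusted p = 1 for both). Cdkn1a region 1 had the same calls and the same p there. After against before, Cdk6 region 4 had 7 against 1 calls (exact test, p = 0.43, adjusted p = 1), so neither comparison passed. Ccnd2 region 5 and Ccnd3 region 6, with 6 against 0 calls each, tied with it at that p. The excess of Cdk6 region 4 after transplantation, 0.85 calls beyond expectation, was 0.21 without old pre 2 and 0.23 without old post 2 (exact test, p = 1 for both).

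Of the CIP/KIP inhibitors, Cdkn1a (p21, a p53 target) had a region around its downstream start called in every library and no peak at the upstream start 2.8 kb away. Region 3 (chr17:29093348-29096149) was called in all 16 libraries, with its median summit 1779 bp past the downstream start. Its rank ran from 2.39% in old pre 2 to 10.5% in 13 lists and from 20.9% to 30.3% in old post 4, young pre 4 and old pre 4. In young pre 4 and old pre 4 the peak of this region did not reach the downstream start window, which accounts for its 14 libraries. Region 2 (chr17:29081994-29082502), 8.75 kb before the gene, had 2, 2, 4 and 2 calls. Region 1 (chr17:29078173-29079280), 11.8 kb before it, was called in 0 of 4 young pre, in old pre 1 and 2, in 4 of 4 young post and in old post 2 and 3.

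Cdkn1b (p27, which holds Cdk2 complexes inactive in quiescent cells) had 2 regions called in all 16 libraries and 2 near the gene called mainly in young post libraries. Region 2 (chr6:134919187-134922155) covers the start, with ranks from 3.31% in old pre 2 to 47.1% in old pre 4. Region 4 (chr6:134926730-134929408), 3176 bp beyond the gene, was the stronger in every list, from 0.997% in old post 3 to 21.2% in old pre 4. Region 1 (chr6:134916269-134917748), 3.1 kb before the start, was called in 13 libraries, all but young pre 4, old pre 4 and old post 4. In lists of 14008 peaks it was called in 4 of 4 young post and 1 of 4 old post libraries (p = 0.15, adjusted p = 0.5, exact test over 1620 regions).

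Cdkn1b region 5 (chr6:134932501-134933594), 7461 bp beyond the gene, was called in young pre 1, in all 4 young post libraries and in no old library of either stage. Its peaks were in the weaker part of their lists, at 84% in young pre 1 and 67.9%, 84.3%, 77.1% and 80.3% in young post 1 to 4. Groups did not overlap after transplantation, with 4 of 4 against 0 of 4. Of the 42 regions this was the 1 called in 4 of 4 young post and 0 of 4 old post libraries (2.38%), and 1.52% of all regions showed the same pattern. Old post 3, the old library with the longest list after transplantation, had a call probability of 0.627 at this region and old pre 2 had 0.373. The other 6 old libraries had 0.266 or less. Over both stages the 0 calls of 8 old libraries stood 1.81 below expectation (exact test, p = 0.038, adjusted p = 0.81). After transplantation alone the exact test gave p = 0.35 and adjusted p = 1, and the difference of -0.98 calls from expectation was -0.48 without old post 3 (p = 1). That p of 0.35 is what the exact test gives for this pattern, given the list lengths, so a region called this way after transplantation could not pass.

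Cdkn1b region 3 (chr6:134922514-134923209), inside the gene, was called in 0 of 8 pre libraries, 4 of 4 young post libraries and old post 3. Its rank was 65% to 87.2% in young post and 97.6% in old post 3. Old against young after transplantation it had 0.42 calls fewer than expected in old (exact test, p = 1, adjusted p = 1).

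The INK4 genes differed from each other in how they were called. Cdkn2d (p19Ink4d) had 1 region, Cdkn2d region 1 (chr9:21290602-21292073), over its start. It was called in all 16 libraries within a narrow span of ranks, from 1.91% in old post 3 to 3.77% in young pre 1. Unlike Ccnd3 region 8, Cdk6 region 1 and both regions of Cdkn1b called everywhere, it ranked at 2.67%, 2.62% and 2.1% in the 3 shortest lists too.

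Cdkn2c (p18Ink4c) had region 3 (chr4:109666677-109667571) over its upstream start called in 15 libraries, all except old pre 4. Region 2 (chr4:109664902-109666570), over a second start 1.4 kb downstream, had 2, 2, 4 and 3 calls. Region 1 (chr4:109656917-109658340), 3129 bp beyond the gene, had 3, 3, 4 and 4. For region 2, old against young before transplantation gave p = 1 and adjusted p = 1 by the exact test.

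At the Cdkn2a and Cdkn2b locus, peaks were called at the Arf and p15Ink4b starts and none at the p16Ink4a start, which lies 12.4 kb downstream of the Arf start. Cdkn2a region 1 (chr4:89294746-89295905) had its median summit 254 bp before the Arf start. Before transplantation it was called in young pre 1 and in no other of the 8 libraries. After it, it was called in 4 of 4 young and 3 of 4 old libraries, all but old post 4. The pre peak in young pre 1 lay further upstream and did not overlap the Arf window, which was called in 0 of 8 pre and 7 of 8 post libraries.

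Peaks at Cdkn2a region 1 ranked at 80.8% of the list in young pre 1, at 44.8% to 49.6% in young post and at 60.3% to 62% in old post. The call probabilities, given the list lengths and the 8 calls of the region, were 0.789 in old pre 2 and 0.516 in old pre 1, where it was not called, and 0.223 in old post 1, where it was. The 7 calls after transplantation were 1.49 more than expected (exact test, p = 0.093, adjusted p = 1, donor block). That excess was 0.68 without old pre 1 or old post 1 and 0.87 without old pre 2 or old post 2 (exact test, p = 0.39 and 0.22). Over both stages 3 of 8 old and 5 of 8 young libraries called it (exact test, p = 1, adjusted p = 1). Calls before and after overlapped through young pre 1 and old post 4, and neither comparison passed. In lists of 14008 peaks the region was no longer kept.

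Cdkn2b (p15Ink4b) region 1 (chr4:89310366-89311300) covers its start and was called in 14 libraries, all but young pre 4 and old pre 4. Ranks were 46%, 94.7% and 71% in young pre 1 to 3, 29.7%, 32.8% and 41.4% in old pre 1 to 3, 29.5% to 33.9% in young post and 27.2% to 48.2% in old post. The peak was thus in the stronger part of all lists after transplantation and near the end of the list in young pre 2. In lists of 14008 peaks it had 1 of 4 young pre and 3 of 4 old pre calls, beside 8 of 8 after transplantation (old against young before, p = 0.4, adjusted p = 0.89, exact test over 3273 regions). Region 3 (chr4:89368955-89369503), 58.4 kb before the gene, was called in old pre 2, in 4 of 4 young post and in old post 3 (old against young after transplantation, exact p = 1). Region 2, 40.2 kb before it, was called in young post 2 and old post 3 only.

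**Figure D4:**
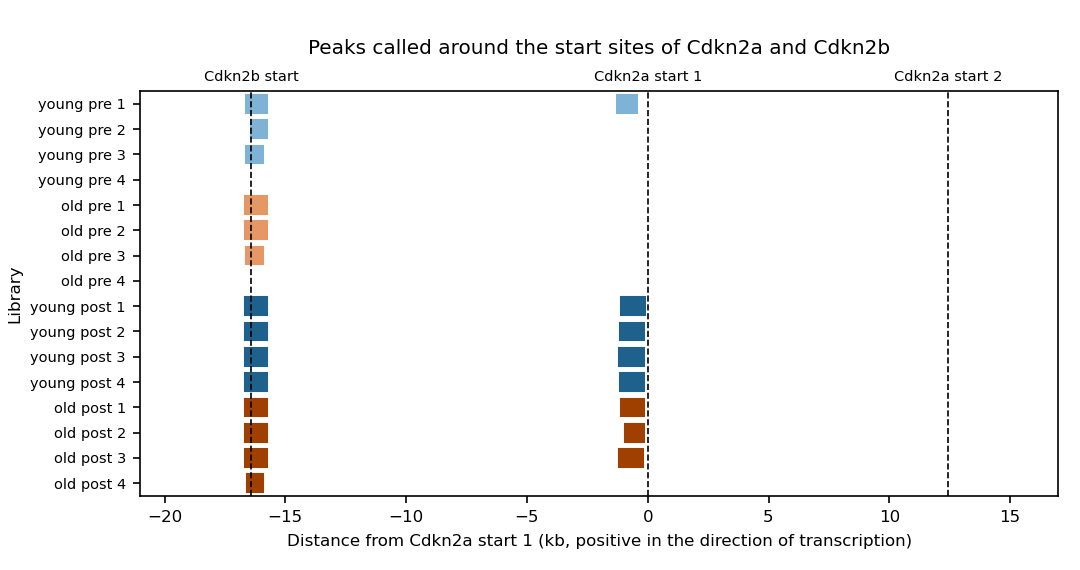
Coloured bars mark the called peaks of each library (rows) against the distance in kb from the Arf start (Cdkn2a start 1), with dashed lines at the Cdkn2b start and both Cdkn2a starts. Peaks stand at the Cdkn2b start in 14 libraries and just before the Arf start in 8, of which 7 are post libraries, and none at the p16Ink4a start 12.4 kb to the right.

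No region of these genes passed in any comparison. Old against young before transplantation, 7 of the 42 could be tested and 0 were called, and 0% of 9407 regions tested were called (215 of those, 2.29%, and 0 of the 7 had an unadjusted p below 0.05). Old against young after transplantation, 0 of 4 tested were called, against 0.465% of 5163 (0 of the 4, and 1.84% of all tested, below 0.05 unadjusted). All 24 regions called there were higher in old. Old against young over both stages, 0 of 16 were called, against 0.27% of 15182 (38 higher and 3 lower in old). 1 of the 16, Cdkn1b region 5, was below 0.05 unadjusted, as were 4.56% of all regions tested. After against before transplantation, 0 of 16 were called, against 0.257% of 15182 (0 of the 16, and 2.92% of all tested, below 0.05 unadjusted). All 39 regions called there were lower after transplantation. By Fisher's exact test, without weights for list length, 0 regions of these genes were called in each comparison, and 0, 1, 1 and 6 were below 0.05 unadjusted in the same order. Over all regions tested those shares were 0%, 9.94%, 2.13% and 15.9%.

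List length limited what this test could show. A region called in all 8 post and no pre library could reach no p below 0.059, and one called in every young but not any old library after it none below 0.35. In the opposite directions, and between ages before transplantation or over both stages, the p of such a complete split was 1.7e-06 or less. With limma on presence (0 or 1), which does not weight for list length, 3 regions were called lower in old after transplantation (Cdkn1b regions 3 and 5, Cdkn2b region 3). There limma called 52.8% of all regions tested, in either direction. With limma 6 were called higher after transplantation, namely Ccnd1 region 4, Ccnd2 region 5, Ccnd3 region 6, Cdk6 region 4 and Cdkn2a region 1 (adjusted p = 0.014 each) and Cdkn1b region 3 (adjusted p = 0.028). The background there was 15.9% of regions. In the other 2 comparisons limma called 0 of these regions and 0% of all.

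Counted without a test, 32 of the 42 regions (76.2%) had more calls after than before transplantation and 1 had fewer, and 75.6% of all regions had more. 5 were called in at least 2 libraries after and none before (Ccnd2 region 5, Ccnd3 regions 6 and 7, Cdkn1b region 3, Cdkn2b region 2), where the background was 9% of regions. The reverse held for 1, Ccnd3 region 5, with a background of 2.71%. Called in 4 of 4 young post and 0 of 4 young pre libraries were 7 (16.7%), against 7.13% of all regions. These were Ccnd2 region 5, Ccnd3 region 6, Cdk6 regions 4 and 5, Cdkn1a region 1, Cdkn1b region 3 and Cdkn2b region 3. None of the 7 lay at a gene end. In lists of 14008 peaks 24 regions of these genes remained and 0 had this pattern. With peaks of an area of at least 400 it held for 5 regions, of which 0 were among the 7. They were Ccnd1 region 4, Ccnd2 region 6, Ccnd3 region 9, Cdk6 region 2 and Cdkn2a region 1, the last at a gene end. The share of all regions with the pattern is not at hand for that area. Of all regions there, a mean of 90.4% were called in young post and 55.7% in young pre libraries. The reverse, young pre in 4 of 4 and young post in 0 of 4, held for 0 (background 0.00296%). This count and the comparison of ages after transplantation share the young post libraries.

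In old post 4 of 4 and old pre 0 of 4, the count was 0 (background 0.00888%), and the reverse also 0 (background 0.00296%). Between ages, the count was also 0 for old post in 4 of 4 with young post in 0 of 4, and for both directions before transplantation, with a background of 0% for each. Leaving out the 3 shortest lists, an alternative chosen after seeing the data, the count for old post against old pre was 2, Ccnd1 region 4 and Cdkn2a region 1, which are then called in all 3 old post and none of 3 old pre libraries. The corresponding background was 1.13% of regions.

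The 30 other cell cycle genes listed for comparison (among them Cdk2, Cdk4, Ccne1, Rb1, the E2f genes, Cdkn1c, Trp53 and Myc) held 69 regions at 26 genes, 15 of them called in all libraries. Their calls were 60.9%, 55.4%, 94.2% and 70.3% of those possible in the 4 groups, beside 57.7%, 56.5%, 94.6% and 75% at the genes above. In each of the 4 comparisons 0 of their regions passed the exact test, with 20, 12, 37 and 37 tested. Young post in 4 of 4 and old post in 0 of 4 held for 1 region each of Cdc25a, a phosphatase that activates Cdk2, and Fbxw7, a ubiquitin ligase subunit that marks cyclin E and Myc for degradation. Young post in 4 of 4 and young pre in 0 of 4 held for 2 regions of E2f2 and 1 each of Fbxw7 and Foxo3, a transcription factor of HSC quiescence. Cdk2, Cks1b, Trp53 and Lin52 had no region.

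As a description, genes were ranked by the Pearson correlation of their mean calls beyond expectation with those of each gene here over the 16 libraries, among 3460 genes with at least 3 regions that vary. The libraries' list lengths are shared by all genes, and with 3 to 6 regions per gene few patterns are possible. The most alike were Ccdc40 (0.88) and Panx1 (0.86) for Ccnd1, Slc12a7 (0.88) and Iqgap1 (0.86) for Ccnd2, and Tarbp1 and Npc1 (0.87 each) for Ccnd3. They were Tec (0.88) and Gm8909 (0.87) for Cdk6, Dock6 (1.0) and Stard10 (0.89) for Cdkn1b, and Atg4c (0.85) and Arhgap6 (0.82) for Cdkn2b. For Cdkn2c, Adap1 and Casp8 reached 1.0, which to that rounding is a linear relation of the deviations and need not be identical calls. Cdkn1a, Cdkn2a and Cdkn2d had too few varying regions.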

How the data were processed

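Per the labels' protocols, DNA of sorted HSCs was transposed by the Omni-ATAC method, and per the submitters' processing notes Trim Galore and cutadapt trimmed the reads and Genrich called peaks on mm10, with FastQC, MultiQC, ChIPseeker, featureCounts and DESeq2 also named. For aligner, versions and settings nothing is given in the sources used here. The authors deposited 1 peak list per library, called separately, with 387029 peaks in all, of which 393 on scaffolds were left out. The area of each peak in the deposited lists is a score with a smallest value of 200, and the summit's −log10 p and −log10 q are deposited beside it. None of these is normalised between libraries, so presence was compared and area used only to rank peaks within a list.

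Peaks overlapping by at least 1 bp were merged, and regions were assigned to 21631 protein-coding genes of RefSeq's GRCm38.p6 table, which holds gene spans. Library weights came from a Rasch model fitted by conditional maximum likelihood over all regions. The exact test conditions on the calls of a region, and for after against before on the calls within each donor, since the series design takes both libraries of a number and age from the same donors. The labels do not link old and young libraries of a number, so no block was used there. The test was tried on simulated calls. The members and lists were chosen with earlier results of these data known. Named in full were regions at gene ends, regions past a test and, per comparison, the 4 regions with the smallest p. Where p values tied for the last of these 4 places, not every tied region was taken. Regions named from the shortened lists and for their rank or calls were chosen after their values were seen. The alternatives were Fisher's exact test, limma, shortened lists, a minimum area of 400, 3 libraries in place of 2, a peak over the median summit, 50 kb in place of 100 kb, shared transposition days, the replicate block, each library left out and, chosen after seeing the data, the 3 shortest lists left out. Python 3.11.15 with numpy 2.4.6, pandas 2.3.3, scipy 1.17.1 and matplotlib 3.10.9, and R 4.3.3 with limma 3.58.1, were used.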

Additional observations from a re-analysis of the deposited data

Results flagged for a closer look

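Among the 12 groups of 4 values examined for a value far from the rest, 1 had one. Young post 1 called 39 of the 42 regions while the other 3 young post libraries called 40 each, so that the gap is the whole range of the group. The gap is 1 region. The rule picks out about 1 in 20 groups by chance where values are continuous. That rate does not hold for whole counts, where 3 equal values and 1 other are always picked out.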

How the results depend on the processing

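The number of regions of these genes past the threshold was 0 in each of the 4 comparisons under every alternative run except limma, which called 3 for old against young after transplantation and 6 for after against before. Leaving out each library in turn gave 0 throughout. With the replicate block of old and young libraries of a number it was 0 in the 3 age comparisons, and with no replicate block for donors 0 after against before. Deviations of old and young libraries of a number correlated at 0.07, -0.03, 0.22 and 0.37 before transplantation. After it they correlated at -0.07, -0.04, -0.01 and 0.01. Libraries of the same donors before and after correlated at 0.02, 0.03, 0.01 and 0.04 for young donors. For old donors these were 0.13, 0.19, -0.33 and -0.02. The choice of blocks followed the labels and the series design, not these correlations. Over all regions the counts moved more. From 24 after transplantation they went to 0 with either shortened list, an area of at least 400 or Fisher's test, 2724 with limma, 4 with the block, 2 on shared days and 0 to 20 without 1 library. From 41 over both stages they went to 16 and 0 with shortened lists, 12 by area, 0 with Fisher's test or limma, 3 with the block, 7 on shared days and 2 to 65 without 1 library. From 39 after against before they went to 3 and 0 with shortened lists, 18 by area, 0 with Fisher's test, 2409 with limma, 61 with no block and 6 to 39 without 1 library. Of the regions named for the smallest p of a comparison, 2 directions reversed, with no call before or after. Ccnd3 region 7, old against young after transplantation, went from 0.36 to -0.5 calls beyond expectation with Fisher's test and with limma, which use equal weights. Ccnd3 region 9 over both stages went from -0.84 to 0.68 with an area of at least 400, and the cause was not tested. The pattern of Cdkn1b region 5 was absent from the counts with shortened lists or an area of at least 400 (0 regions). Without old post 3, the old post library with the longest list, it held for 3 regions. The share of all regions is not at hand for that setting, so this is not read as a result about these genes. The 7 regions called in young post and not young pre became 0 with shortened lists and 5 others by area. Among the 42, more calls after than before turned to fewer in 3 of 24 regions kept in lists of 14008 peaks (Ccnd2 region 2, Ccnd3 region 1, Cdkn1b region 1) and in 1 of 32 kept by area (Cdk6 region 5). Old against young, 0 turned in either. Without old post 4, 2 were called in all old post and no old pre library. The share of all regions is not at hand for this count or for the 5 by area, so neither is read as a result about these genes. No read depth is known from these lists, which limits every absent call.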
